A study of Mus musculus with 24 samples.

Results

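The genes described here are Bdnf, Ntf3, Ntrk2, Ntrk3, Ngfr, Sort1 and Vgf: neurotrophins, their receptors and a secreted peptide precursor whose transcription neurotrophins induce. They were picked by symbol, with earlier results of these data known, as 7 of the 53274 genes with a symbol in the mRNAseq count table. The shares of all genes set beside their counts are therefore a description and not a test of the set. All 7 passed the filter on low counts. Adult male C57/BL6N mice, 8 weeks old on arrival and acclimatized for 4 weeks, received kainic acid (KA) or saline (SH) deep in the cortex beside the hippocampus, and right hippocampi were taken at 24 hours. The 8 mice of each treatment were pooled into 3 samples of 4, 2 and 2 mice. Flow cytometry separated NeuN+ nuclei (neurons) from NeuN- nuclei (glia) in every pool, which gave 12 libraries: 3 each of SH neurons, KA neurons, SH glia and KA glia. Neither a transgene nor a deletion is named for these mice. NeuN- nuclei are every nucleus without NeuN, so that the glia also hold vascular cells, and the RNA is polyadenylated RNA from nuclei and not from whole cells.

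Neurotrophins are secreted growth factors made as proneurotrophins and cleaved to the mature form. Mature BDNF acts mainly on TrkB (Ntrk2) and NT-3 on TrkC (Ntrk3), which are receptor tyrosine kinases, while p75 (Ngfr) and sortilin (Sort1) together bind proneurotrophins. Bdnf is one of the best known genes induced by neuronal activity, and in the hippocampus both it and NT-3 are made chiefly by granule and pyramidal neurons; TrkB also exists in a truncated form without the kinase that astrocytes make in quantity. Counts per gene do not separate the full-length from the truncated forms of either Trk receptor.

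Between 7769400 and 40364768 reads were counted in a library (median 21380824.5). Of the 12 libraries, 2 (SH glia replicate 1 and KA glia replicate 2) were made from 0.05 ng of RNA with 15 PCR cycles instead of 1 ng with 10 cycles. The replicate 3 libraries had the fewest genes with a count in each of the 4 groups. The summed level of 15 neuronal markers was 5915 to 9427 CPM (the count relative to the library total, scaled with TMM factors) in neurons and 566 to 2078 CPM in glia. The summed level of 8 oligodendrocytic markers was 338 to 1313 CPM in SH neurons, 145 to 714 CPM in KA neurons, 14656 to 30812 CPM in SH glia and 7607 to 14208 CPM in KA glia. No marker of either list was at 0 in any library. By these lists the sorted fractions carried the markers of their labels, with a lower level of the other fraction's markers. Summed astrocytic, microglial, oligodendrocyte precursor and pericytic markers were also higher in glia than in neurons, without overlap. Endothelial markers overlapped, at 9.43 to 23.0 CPM in SH neurons and 9.86 to 40.4 CPM in SH glia. In KA they summed to 16.8 to 21.8 CPM in neurons and 20.8 to 49.6 CPM in glia.

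Vgf and Bdnf were higher in all KA libraries than in all SH libraries in both neurons and glia, and Ntf3 was lower in all of them. With an FDR below 0.25 (edgeR's quasi-likelihood test, Benjamini-Hochberg over 37598 genes) as the criterion, Vgf was upregulated in neurons (5.13-fold) and in glia (7.17-fold), and Bdnf in glia (3.78-fold). That is 1 of the 7 genes upregulated in neurons, where 0.279% of all genes tested were, and 2 of 7 in glia, where 0.442% were. None of the 7 was downregulated at this criterion, against 0.0612% of all genes in neurons and 0.306% in glia. At an unadjusted p below 0.05, 1 of the 7 (Ntf3) was lower in KA neurons and 2 (Ntf3 and Sort1) were lower in KA glia. Downregulated genes by DESeq2 numbered 1 of the 7 in neurons and 2 in glia, and by edgeR 4 they numbered 1 and 0. Here and below, the shares of all genes at that unadjusted p, by DESeq2 and by edgeR 4 are not given. Such counts therefore have no background beside them.

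When the replicate number was added to the model as a block, 3 of the 7 genes changed in neurons: Bdnf and Vgf rose and Ntf3 fell. In glia 4 changed, with Bdnf and Vgf up and Ntf3 and Sort1 down. Of all genes, the blocked model had 1.94% up in KA neurons and 1.11% down, while KA glia had 3.47% up and 4.17% down. Libraries that carry the same number deviated from their group means together. Both models are therefore given for each of the 7 genes whose call differs between them, and as counts for the gene lists. With 3 pools against 3, an exact permutation test of a single gene cannot give a p below 0.1.

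**Figure D1:**
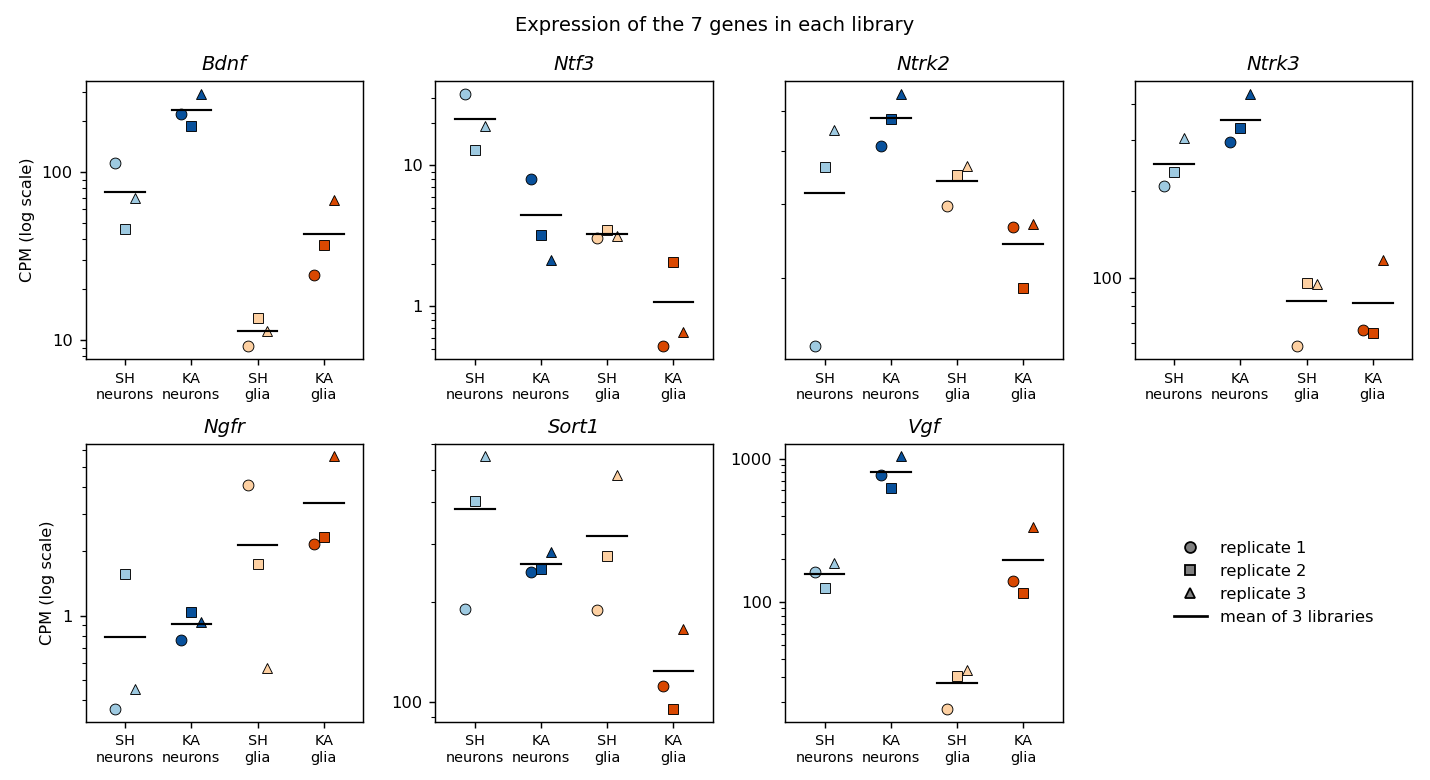
CPM (log scale) of the 7 genes in each of the 12 libraries, with SH in light and KA in dark colours, neurons in blue and glia in orange; symbols give the replicate number and bars the mean of 3 libraries. Bdnf and Vgf sit higher in KA than in SH in both cell types without overlap, Ntf3 sits lower, and KA and SH libraries of Ntrk3 overlap in both.

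Among the ligands, Bdnf (ENSMUSG00000048482, chr2:109674700-109727007, + strand, GRCm38) is the gene of brain-derived neurotrophic factor. In neurons, the SH libraries had 113, 45.5 and 70.1 CPM and the KA libraries 221, 187 and 292 CPM. Every KA library lay above every SH library, and within the same replicate number the KA level was 1.95 to 4.17 times the SH level. The log2 fold change (logFC) was 1.61 (SE 0.43, 95% interval 0.71 to 2.52), with an FDR of 0.353 in the model of group means and a logFC of 1.69 (SE 0.29, FDR 0.00355) with the replicate block. Bdnf in neurons was also past the criterion by DESeq2 (FDR 0.0411), by edgeR 4 (0.177) and in separate fits of neurons and glia (0.0748), but in none of the 6 fits of group means that left out 1 neuronal library.

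In glia, Bdnf had 9.16, 13.6 and 11.4 CPM in SH and 24.2, 36.6 and 68.2 CPM in KA. All 3 KA libraries were above all SH libraries, and KA replicate 3 was the highest by a clear margin. The logFC was 1.92 (SE 0.43, 95% interval 1.00 to 2.84; FDR 0.122), and 1.81 (SE 0.29; FDR 0.00158) with the block. This call was lost without SH glia replicate 3 (FDR 0.471), KA glia replicate 2 (0.462) or KA glia replicate 3 (0.293, logFC 1.41). Without the 2 low-input libraries the logFC was 1.85 with an FDR of 1, and without all replicate 3 libraries 1.41 with an FDR of 0.698. Exons of Bdnf share 14.4% of their bases with exons of Gm45346, an antisense gene of which every library held at most 0.694 CPM.

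RefSeq gives 7 promoter windows for Bdnf, each from 250 bases before to 50 bases after a transcript start (GRCm38.p6). They were searched on both strands for 5 motifs of factors that respond to calcium and neuronal activity: the cyclic AMP response element (CRE) TGACGTCA, its shorter form TGACG, the AP-1 motif TGANTCA, the EGR motif GCGNGGGCG and the E-box CACGTG. The shorter CRE lies inside the full CRE, so that every full match is also a short one. Windows 2 and 3 are shown because they alone held a match; the matched letters are in capitals.
Bdnf window 2, chr2:109676782-109677081 (+): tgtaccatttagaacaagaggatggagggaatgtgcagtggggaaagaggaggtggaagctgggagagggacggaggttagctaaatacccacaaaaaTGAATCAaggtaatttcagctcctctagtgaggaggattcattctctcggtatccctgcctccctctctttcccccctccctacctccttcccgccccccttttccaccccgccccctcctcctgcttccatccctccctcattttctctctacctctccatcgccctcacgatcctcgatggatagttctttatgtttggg
Bdnf window 3, chr2:109692186-109692485 (+): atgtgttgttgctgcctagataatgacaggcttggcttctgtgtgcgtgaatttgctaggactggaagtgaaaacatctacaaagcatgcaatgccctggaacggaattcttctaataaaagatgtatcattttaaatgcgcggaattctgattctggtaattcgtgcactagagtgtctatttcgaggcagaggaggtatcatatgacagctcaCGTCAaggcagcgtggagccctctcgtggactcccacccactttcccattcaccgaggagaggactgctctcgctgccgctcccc

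Window 2 held an AP-1 match 152 bases before the transcript start (position -152). Window 3 held the shorter CRE on the minus strand at position -35. Of 32851 promoters of all genes, 7.81% held the AP-1 motif, 20.8% the shorter CRE, 1.79% the full CRE, 5.55% the EGR motif and 7.15% the E-box. A match is a description of the letters and not a measured binding site, and counts per gene do not show which of the Bdnf promoters was in use.

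Ntf3 (ENSMUSG00000049107, chr6:126101412-126166910, - strand) encodes neurotrophin-3. Its levels in neurons were 32.1, 12.8 and 18.8 CPM in SH and 7.94, 3.23 and 2.15 CPM in KA. The direction was thus opposite to that of Bdnf, with no overlap between KA and SH, and in each replicate number the KA level was 0.114 to 0.253 times the SH level. The logFC was -2.27 (SE 0.59, 95% interval -3.52 to -1.03; FDR 0.32), and -2.36 (SE 0.40; FDR 0.00378) with the block. DESeq2 (FDR 0.0216), edgeR 4 (0.0456) and separate fits (0.105) also put Ntf3 past the criterion in neurons, as did the fit without KA neurons replicate 1 (0.142).

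Glia held little Ntf3, with 3.05, 3.50 and 3.14 CPM in SH and 0.521, 2.06 and 0.659 CPM in KA. The counts behind the KA glia values summed to 76 over the 3 libraries. All 3 KA libraries were below the SH libraries, at 0.171 to 0.589 times the level of the same replicate number. The logFC was -1.54 (SE 0.60; FDR 0.763), and -1.73 (SE 0.44; FDR 0.0401) with the block. Of 2 promoter windows of Ntf3, only the one shown here held a searched motif, an E-box at position -231, in capitals.
Ntf3 window 1, chr6:126166695-126166994 (-): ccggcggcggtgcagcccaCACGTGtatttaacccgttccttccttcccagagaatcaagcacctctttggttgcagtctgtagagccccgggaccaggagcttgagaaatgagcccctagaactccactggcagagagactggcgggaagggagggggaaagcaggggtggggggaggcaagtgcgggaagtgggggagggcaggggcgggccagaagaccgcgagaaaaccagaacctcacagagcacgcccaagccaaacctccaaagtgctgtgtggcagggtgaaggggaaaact

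A further ligand of TrkB, Ntf5 (neurotrophin-4/5), stood at a low level. It had a mean of 1.81 ± 0.67 CPM in SH neurons and 2.57 ± 1.495 CPM in KA neurons (SD, n = 3), and at most 1.17 CPM in any glial library. Ntf5 did not pass the criterion in either cell type, with or without the block (logFC 0.51 in neurons and 0.32 in glia, both FDR 1).

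Of the receptors, Ntrk2 (ENSMUSG00000055254, chr13:58806569-59133970, + strand) encodes TrkB. In neurons it had 137, 368 and 449 CPM in SH and 411, 478 and 549 CPM in KA, so that the groups overlapped. SH neurons replicate 1 was far below the other neuronal libraries, and the KA level in replicate 1 was 3.00 times the SH level, against 1.22 and 1.30 times in the others. In glia the levels were 297, 350.4 and 369.7 CPM in SH and 263, 189 and 269 CPM in KA, and there the KA libraries were all lower. The logFC was 0.59 (SE 0.43, 95% interval -0.31 to 1.495; FDR 1) in neurons and -0.50 (SE 0.43, 95% interval -1.40 to 0.41; FDR 1) in glia. Neither passed the criterion with the block (FDR 0.311 and 0.435).

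Ntrk3 (ENSMUSG00000059146, chr7:78175959-78738012, - strand), the gene of TrkC, had 209, 233 and 306 CPM in SH neurons and 296, 332 and 436 CPM in KA neurons. The 3 pairs of the same replicate number gave nearly the same ratio, 1.41 to 1.43, although the groups overlapped. In glia it had 58.2, 96.7 and 95.9 CPM in SH and 66.5, 65.0 and 116 CPM in KA, with no common direction among the pairs. The logFC was 0.51 in neurons (SE 0.37, 95% interval -0.28 to 1.30; FDR 1) and -0.02 in glia (SE 0.37, 95% interval -0.81 to 0.77; FDR 1), with block FDRs of 0.572 and 0.973.

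Ngfr (ENSMUSG00000000120, chr11:95568818-95587735, - strand), which encodes p75, had the lowest level of the 7 genes in neurons and in SH glia. It had 0.363, 1.56 and 0.449 CPM in SH neurons and 0.769, 1.04 and 0.932 CPM in KA neurons. In glia it had 4.10, 1.75 and 0.568 CPM in SH and 2.17, 2.33 and 5.60 CPM in KA, so that the SH libraries alone spread over a wide range. Counts per library were few, with sums of 54 and 62 over the SH and KA neuronal libraries and 106 and 222 over the glial ones. The intervals of the logFC were accordingly wide, -1.56 to 1.97 in neurons (logFC 0.21, FDR 1) and -1.06 to 2.41 in glia (logFC 0.67, FDR 1).

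Sort1 (ENSMUSG00000068747, chr3:108284082-108361511, + strand) encodes sortilin, a sorting receptor that also binds proneurotrophins. In glia it had 189, 275 and 483 CPM in SH and 111, 94.985 and 166 CPM in KA. The KA libraries were all below the SH libraries, at 0.343 to 0.591 times the level of the same replicate number. The logFC in glia was -1.35 (SE 0.46, 95% interval -2.32 to -0.38; FDR 0.569), and -1.28 (SE 0.27; FDR 0.0111) with the block. Sort1 in glia was past the criterion with DESeq2 (FDR 0.0607), with library size scaling only (0.204) and with a filter of at least 10 counts in every library (0.0993). It moved in the same glial libraries in which the summed oligodendrocytic markers were lower in KA without overlap (7607 to 14208 CPM against 14656 to 30812 CPM), and the part of these cells in its level was not tested. Of those 8 markers, 0 were downregulated without the block and 5 with it (median logFC -1.24). Of all genes tested in glia, 0.306% were downregulated without the block and 4.17% with it. Upregulated in glia were 0.442% and 3.47% of all genes, and the median logFC of all genes was 0.14 without the block. Other markers moved in the same libraries. Of 10 astrocytic markers 1 was downregulated (with the block 6 down and 1 up, median logFC -0.83). Of 5 markers of oligodendrocyte precursors 1 was (3 with the block, median logFC -0.81). Of 10 microglial markers 1 was downregulated (2 with the block, median logFC -0.44), and of 15 neuronal markers 1 was (2 with the block, median logFC -0.45). Of 5 pericytic markers 0 were (1 with the block, median logFC -0.37). Of 7 endothelial markers 0 were downregulated in either model, and 1 was upregulated with the block (median logFC 0.77). Precursor markers summed to 1028 to 1431 CPM in SH glia and 464 to 822 CPM in KA glia, without overlap. The part of these other cell types in the glial levels of Sort1 and Ntrk2 was not tested either. In bulk libraries, fewer cells of a type and less RNA per cell cannot be told apart.

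In neurons Sort1 had 191, 403 and 550 CPM in SH and 246, 251 and 282 CPM in KA. The SH libraries spread over a wider range than the KA libraries and enclosed them, and only 1 of 3 pairs was higher in KA. The logFC was -0.55 (SE 0.45, 95% interval -1.51 to 0.40; FDR 1), and -0.43 (FDR 0.835) with the block. As for Ntrk2, SH neurons replicate 1 had the lowest level of the 6 neuronal libraries. An antisense gene, Gm12523, shares 4.47% of the exon bases of Sort1 and stood at 0.306 to 4.74 CPM.

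Vgf (ENSMUSG00000037428, chr5:137026392-137033351, + strand) encodes a secretory granule protein that is cleaved to neuropeptides and is induced by neurotrophins. In neurons it had 162, 124 and 187 CPM in SH and 768, 619 and 1036 CPM in KA. The lowest KA library was over 3 times the highest SH library, and the ratio within replicate numbers was 4.75 to 5.54. The logFC was 2.36 (SE 0.47, 95% interval 1.37 to 3.35; FDR 0.0929), and 2.35 (SE 0.26; FDR 6e-05) with the block. Although the logFC stayed between 2.14 and 2.52, the call was lost without SH neurons replicate 1 (FDR 0.593), 2 (0.399) or 3 (0.307) and without KA neurons replicate 3 (0.528). Without all replicate 3 libraries the FDR was 0.159.

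In glia, Vgf had 17.8, 30.6 and 33.3 CPM in SH and 139, 116 and 332 CPM in KA. The groups were again far apart, and the ratio within replicate numbers ran from 3.79 to 9.96. The logFC was 2.84 (SE 0.48, 95% interval 1.83 to 3.85; FDR 0.0284), and 2.74 (SE 0.27; FDR 3.98e-05) with the block. It passed in all 6 fits that left out 1 glial library (FDR 0.0463 to 0.14). With both low-input libraries left out the logFC was 2.80 with an FDR of 0.344, and without all replicate 3 libraries it was 2.39 with an FDR of 0.257. Of the 7 genes, Vgf had the largest logFC in each cell type.

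**Figure D2:**
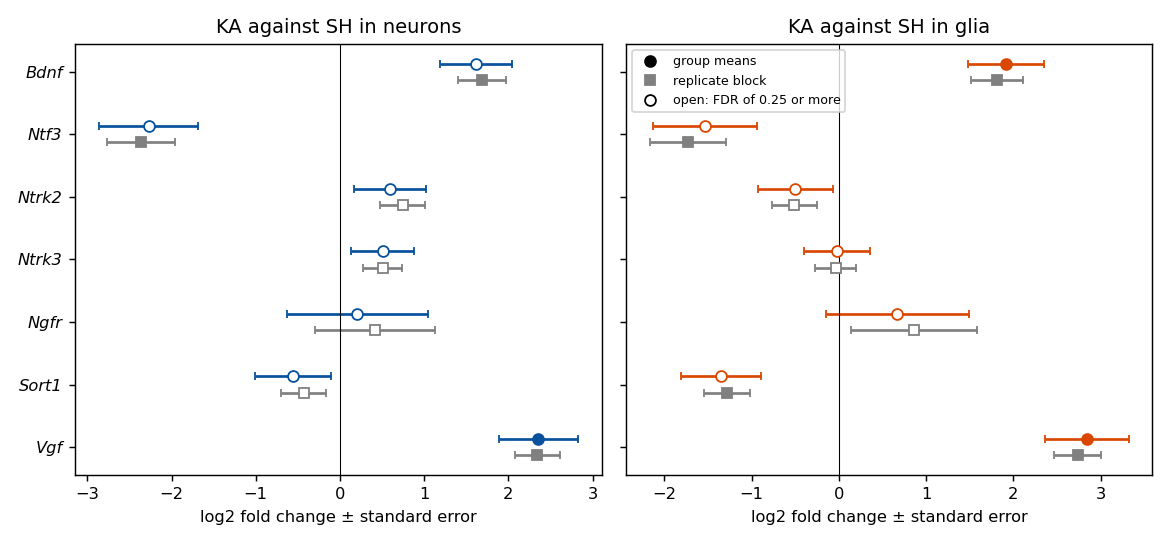
LogFC of KA against SH (log2 scale, bars ± standard error) of the 7 genes in neurons (left) and glia (right), from the model of group means (circles) and with the replicate block (squares). Filled symbols have an FDR below 0.25; Vgf is filled in all 4 fits, Ntf3 only with the block, and the standard errors are smaller with the block for all 7 genes.

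Counted by overlap alone, 2 of the 7 genes (Bdnf and Vgf) had all KA libraries above all SH libraries in neurons, as 5.27% of all genes tested had, and 1 (Ntf3) had them all below, as had 4.45%. In glia these were 2 of 7 (Bdnf and Vgf), against 3.61% of all genes, and 3 of 7 (Ntf3, Ntrk2 and Sort1), against 3%. The median logFC of the 7 genes was 0.51 in neurons and -0.02 in glia, and that of all genes tested was 0.00048 and 0.14.

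Whether KA moved a gene differently in neurons than in glia was tested as the difference between both logFC. For none of the 7 genes was the KA effect higher in neurons or higher in glia at an FDR below 0.25, and the same held for all genes tested, 0% of which passed in either direction. None of the 7 had an unadjusted p below 0.05, and DESeq2 and edgeR 4 called 0 as well. The difference was -0.48 for Vgf (95% interval -1.82 to 0.85), -0.31 for Bdnf (-1.55 to 0.94) and -0.73 for Ntf3 (-2.47 to 1.00). For Ntrk2, whose logFC had opposite signs in neurons and glia, the difference was 1.09 (SE 0.60, 95% interval -0.19 to 2.37; FDR 1), and the FDR was 0.44 with the replicate block and 0.547 with the pool as a block. For Sort1 it was 0.79 (-0.55 to 2.14), for Ntrk3 0.53 (-0.59 to 1.65) and for Ngfr -0.47 (-2.95 to 2.02). These intervals hold differences of more than 1 log2 unit for several genes, so similar effects in neurons and glia are not shown by them.

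The level of the 7 genes in neurons was then compared with that in glia. In SH, 4 of 7 were higher in neurons (12.3% of all genes): Bdnf 6.70-fold (logFC 2.75, FDR 0.000814), Ntf3 6.55-fold (2.71, FDR 0.0065), Vgf 5.77-fold (2.53, FDR 0.00217) and Ntrk3 2.98-fold (1.58, FDR 0.0118). None was higher in glia, where 7.57% of all genes were, none had an unadjusted p below 0.05 in that direction, and edgeR 4 gave 0 and DESeq2 1 (Ngfr, FDR 0.202). Ntrk2 (logFC -0.09, 95% interval -0.99 to 0.81) and Sort1 (0.27, -0.68 to 1.22) did not pass in either direction. Ngfr had a logFC of -1.41 (FDR 0.432), which passed without SH neurons replicate 2 (FDR 0.186) or SH glia replicate 3 (0.208). Both ligands, TrkC and Vgf were thus higher in neurons, while TrkB and sortilin mRNA was found in both fractions.

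In KA, 6 of 7 were higher in neurons (11.2% of all genes) and 1 of 7 in glia (6.62%). Bdnf was 5.43-fold (FDR 0.00192), Ntrk3 4.30-fold (FDR 0.00221), Vgf 4.13-fold (FDR 0.00802) and Ntf3 3.94-fold (FDR 0.0467) higher in neurons. Ntrk2 (1.99-fold, FDR 0.207) and Sort1 (2.09-fold, FDR 0.199) also passed, and Ngfr was higher in glia (logFC -1.87, FDR 0.239). The Ntrk2 and Sort1 calls held without KA glia replicate 3 (FDR 0.149 and 0.0862) and were lost without any other KA library, with FDRs of 0.29 to 0.906 for Ntrk2 and 0.324 to 0.942 for Sort1. The Ngfr call was lost without any of the KA neuronal libraries or KA glia replicate 3 (0.417 to 0.529), and the Ntf3 call without KA neurons replicate 1 (0.299) or KA glia replicate 1 (0.255). A block by pool changed none of these calls. Ntrk2 and Sort1 passed in KA and not in SH, but the test of the difference gave an FDR of 1 for both and did not show that the treatments differ in this.

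The level in glia as a share of that in neurons of the same pool was set beside the same share for 15 neuronal markers, whose median over the list was 28.6% ± 9.29 in SH and 19.6% ± 6.49 in KA (SD, n = 3 pools; exact two-sided permutation test, p = 0.3). For Bdnf the share was 8.07%, 29.8% and 16.2% in SH and 10.95%, 19.5% and 23.3% in KA, above that of the markers in 0 of 3 SH pools and 1 of 3 KA pools. For Vgf it was 11.03%, 24.7% and 17.8% in SH and 18.1%, 18.7% and 32.1% in KA, above the markers in 0 and 2 pools. Ntf3 had 17.9% ± 9.02 in SH and 33.7% ± 28.8 in KA, above the markers in 0 and 2 pools. Against the mean of the marker list in place of its median, the KA pools above it were 0 for Bdnf, 0 for Vgf and 1 for Ntf3, and the SH pools were 0 for all 3 genes. In SH, all 3 genes thus stayed below the share at which neuronal markers were found in glia, and the part of neuronal RNA in the glial results for Bdnf, Vgf and Ntf3 was not tested. The summed neuronal markers were 566 to 1827 CPM in KA glia and 717 to 2078 CPM in SH glia. These sums cannot give the neuronal part for the 3 genes, since the neuronal levels of all 3 moved between SH and KA as well.

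The receptors were different in this respect. Ntrk2 in glia was at 131% ± 74.1 of the neuronal level in SH and 50.8% ± 12.4 in KA, and Sort1 at 85.0% ± 15.5 and 47.3% ± 10.6, above the neuronal markers in 3 of 3 pools of each treatment. Ngfr was at 1129%, 112% and 126% in the SH pools, the first over 6 counts in neurons, and at 283%, 224% and 601% in the KA pools, also above in every pool. Ntrk3 had 33.6% ± 7.12 and 22.9% ± 3.52, above in 2 of 3 SH pools and 3 of 3 KA pools (3 and 1 against the mean of the list). Markers of astrocytes, cells that make TrkB, summed to 2024 to 2942 CPM in SH glia and 1259 to 2405 CPM in KA glia, and to 224 to 687 CPM in SH neurons and 242 to 780 CPM in KA neurons.

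**Figure D3:**
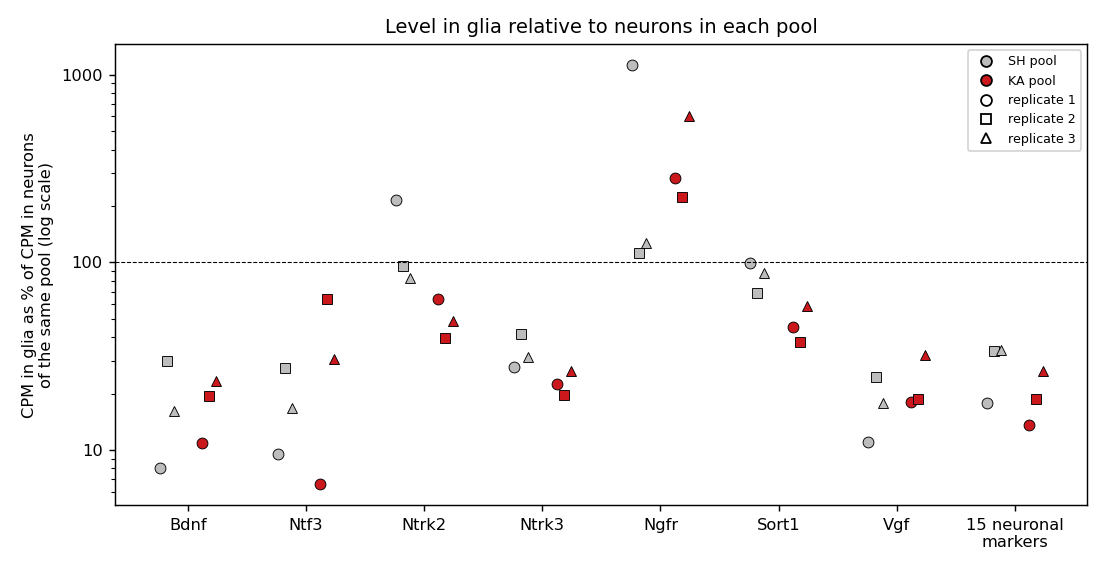
CPM in glia as a percentage of CPM in neurons of the same pool (log scale) for each gene and for the median of 15 neuronal markers, with SH pools in grey, KA pools in red and symbols for the replicate number; the dashed line marks equal levels. Bdnf, Ntf3 and Vgf lie below the median of the neuronal markers in the 3 SH pools and on either side of it in the KA pools, whereas Ntrk2, Sort1 and Ngfr lie above it in all 6.

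Levels between genes can be compared only per length, and CPM was divided by the summed exon length for that purpose. In SH neurons the order was Vgf (53.0 ± 10.7 CPM per kb), Sort1 (50.4 ± 23.9), Ntrk2 (16.5 ± 8.39), Ntf3 (12.4 ± 5.76), Bdnf (12.3 ± 5.54), Ntrk3 (8.26 ± 1.67) and Ngfr (0.229 ± 0.194). Vgf and Sort1 did not differ beyond their spread, nor did the 4 genes from Ntrk2 to Ntrk3. In KA neurons the order was Vgf (272 ± 71.2), Bdnf (37.6 ± 8.64), Sort1 (34.3 ± 2.57), Ntrk2 (24.8 ± 3.57), Ntrk3 (11.7 ± 2.41), Ntf3 (2.59 ± 1.80) and Ngfr (0.265 ± 0.040). Here the libraries of Vgf were all above those of every other gene, and Bdnf and Sort1 overlapped. The ligands Bdnf and Ntf3, which overlapped in SH neurons, lay apart in KA neurons, as did all other neighbours in this order.

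In SH glia Sort1 led (41.7 ± 20.0 CPM per kb), followed by Ntrk2 (17.6 ± 1.95), Vgf (9.17 ± 2.78), Ntrk3 (2.77 ± 0.729), Ntf3 (1.89 ± 0.140), Bdnf (1.83 ± 0.355) and Ngfr (0.621 ± 0.522). In KA glia Vgf led (65.8 ± 39.9), followed by Sort1 (16.4 ± 4.88), Ntrk2 (12.5 ± 2.31), Bdnf (6.92 ± 3.65), Ntrk3 (2.73 ± 0.956), Ngfr (0.978 ± 0.561) and Ntf3 (0.631 ± 0.498). Bdnf and Ntf3 were level in SH glia, and in KA glia every Bdnf library was above every Ntf3 library. Sort1 and Ntrk2 overlapped in KA glia but not in SH glia. Of the other neighbours, Ntrk3 and Ntf3 overlapped in SH glia, and Ntrk2 and Bdnf as well as Ngfr and Ntf3 in KA glia. The long exons of Ntrk2 (19292 bases) and Ntrk3 (30170 bases) in the annotation include transcript forms that need not all be in use, which lowers their values per kb.

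**Figure D4:**
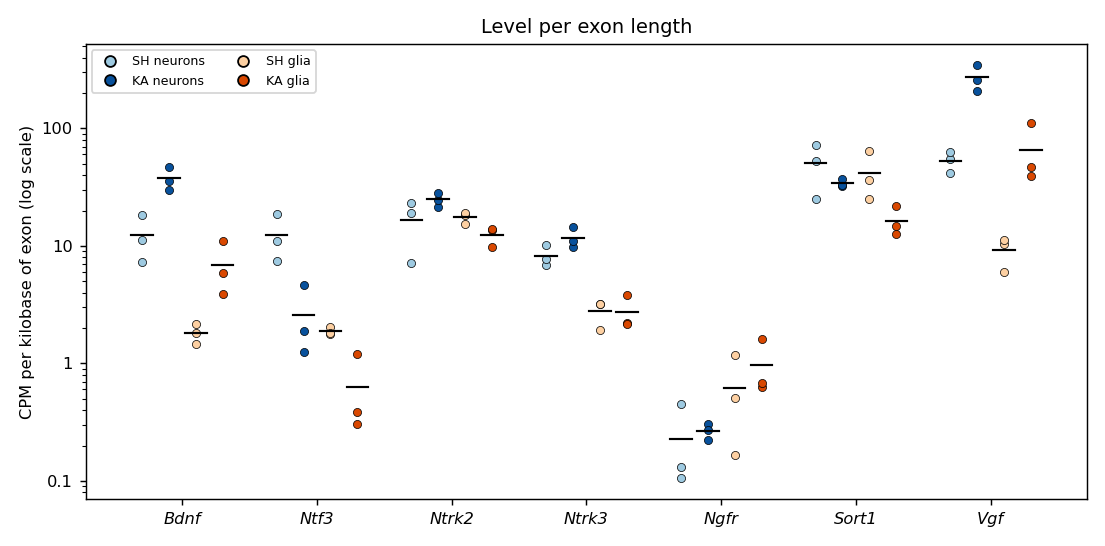
CPM per kilobase of exon (log scale) of the 7 genes, with 3 libraries per group as points and the group mean as a bar. Vgf is highest in KA neurons and in KA glia, Ngfr is lowest in SH neurons, KA neurons and SH glia, and Bdnf and Ntf3 share a level in SH and part in KA.

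For each gene upregulated in a cell type, the 5 genes with the most similar log2 level over the 12 libraries were noted as a description. Those of Vgf were Nptx2 (Pearson's r = 0.978), Gpr3 (0.971), Ptgs2 (0.967), Gm15411 (0.961) and Gm6225 (0.959). Those of Bdnf were Scg2 (0.977), Far2os1 (0.976), 1700016P03Rik (0.974), 4833422C13Rik (0.973) and Sh2d5 (0.973). The libraries fall into neurons and glia and into KA and SH, which all of these genes share, and r is set in large part by those groups. By Spearman's rho only Gpr3 remained among the 5 of Vgf, and none among the 5 of Bdnf. Nptx2 encodes a neuronal pentraxin, Ptgs2 the cyclooxygenase COX-2 and Scg2 a secretory granule protein, each known as an activity-induced gene.

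The other genes of the pathway, 116 in 8 lists of which 115 could be tested, were written down with earlier results of these data known. In neurons 7 of 115 were upregulated, against the 0.279% of all genes given above. None was downregulated, against 0.0612% of all genes (1 at an unadjusted p below 0.05, 1 by DESeq2 and 0 by edgeR 4). In glia 5 were upregulated, against 0.442% of all genes. There 0 were downregulated, against 0.306% of all genes (4 at an unadjusted p below 0.05, 2 by DESeq2 and 0 by edgeR 4). With the replicate block, neurons had 23 up and 2 down, against 1.94% and 1.11% of all genes. Glia had 14 up and 5 down with the block, against 3.47% and 4.17% of all genes. Without the 2 low-input libraries 0 were upregulated in glia, and without all replicate 3 libraries 1 was in neurons and 0 in glia. The median logFC of the 115 genes was 0.040 in neurons and -0.042 in glia, beside 0.00048 and 0.14 for all genes.

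Most of the upregulated pathway genes belonged to those that neurotrophins or activity induce. Of 15 neurotrophin-inducible genes, 5 were upregulated in neurons: Fos (logFC 3.19, FDR 0.0943), Arc (2.49, FDR 0.0742), Egr2 (2.22, FDR 0.187), Nr4a1 (1.66, FDR 0.145) and Btg2 (1.64, FDR 0.202). The median logFC of this list was 1.64. In glia 4 of the 15 were upregulated, namely Fos (2.74, FDR 0.127), Plaur (2.57, FDR 0.101), Junb (2.23, FDR 0.245) and Egr2 (2.02, FDR 0.196), with a median of 1.03. With the block these counts became 13 and 9, against 1.94% of all genes up in neurons and 3.47% in glia. Fos, Junb, Egr2 and Nr4a1 are immediate early transcription factors, Arc acts at synapses, Btg2 restrains proliferation and Plaur is the urokinase receptor.

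Of 18 regulators of Bdnf transcription, 1 was upregulated in each cell type, in both cases Npas4, a transcription factor induced by neuronal activity. Npas4 had a mean of 19.4 ± 2.59 CPM in SH neurons and 196 ± 56.9 CPM in KA neurons (SD, n = 3; logFC 3.33, FDR 0.0455). In glia it had 3.09 ± 2.47 and 16.3 ± 8.35 CPM (logFC 2.38, FDR 0.136). The median logFC of these 18 genes was 0.10 in neurons and -0.02 in glia.

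Of 4 further members of the sortilin family, 1 was upregulated in neurons and 0 in glia. This was Sorcs3, with 89.4 ± 16.1 CPM in SH neurons and 458 ± 224 CPM in KA neurons (logFC 2.36, FDR 0.187). In glia Sorcs3 had 44.9 ± 14.0 and 99.9 ± 80.3 CPM (logFC 1.15, FDR 1), and it passed there only with the block (FDR 0.167). Sorcs1 had a logFC of 1.05 in neurons (FDR 1; FDR 0.0279 with the block), and Sorl1 and Sorcs2 had -0.11 and 0.24 (both FDR 1). Sort1 itself had a logFC of -0.55 in neurons.

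Of 13 tested genes of proneurotrophin processing and release, 0 were upregulated and 0 downregulated in neurons or in glia, with a median logFC of 0.17 in neurons and 0.47 in glia. With the block, this list had 3 genes up and 1 down in neurons, beside 1.94% and 1.11% of all genes. In glia it had 2 up and 3 down with the block, beside 3.47% and 4.17% of all genes. The changes that follow are those with the block. The proprotein convertase Pcsk1, which cleaves VGF, rose in both cell types, by 1.43 in neurons (FDR 0.0183) and 1.08 in glia (FDR 0.0931). So did Pcsk5 (1.26 and 0.64, FDR 0.00832 and 0.214), and Furin rose in neurons (1.09, FDR 0.0582). Those that fell in glia were the convertases Pcsk2 (-0.92, FDR 0.0496) and Pcsk6 (-0.94, FDR 0.0717) and the carboxypeptidase Cpe (-0.76, FDR 0.104). In neurons Serpini1 fell (-0.72, FDR 0.224). None of these changes passed in the model of group means, with FDRs of 0.703 for Pcsk1 and 0.705 for Pcsk5 in neurons. In glia that model gave 0.853 for Pcsk2 and 0.794 for Pcsk6. The glial KA and SH libraries overlapped for Pcsk1 and Pcsk5, and those of the other changes named did not.

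None of 41 genes of Trk adaptors and signalling, 14 of p75 signalling and 9 Trk modulators passed in either direction without the block in neurons or glia, nor did the further ligand. With the block, the Trk signalling list had 2 up and 1 down in neurons, with 1 up and 2 down in glia. The p75 list had 1 upregulated in neurons and 0 in glia, and so had the modulators. Of all genes, 1.94% were up and 1.11% down in neurons with the block, and 3.47% and 4.17% in glia. The median logFC in neurons and glia was -0.06 and -0.13 for Trk signalling, -0.14 and -0.22 for p75 signalling and 0.01 and -0.11 for the modulators. The difference between neurons and glia passed for 0 of the 115 genes (3 higher in neurons and 1 in glia at an unadjusted p below 0.05, and 0 by DESeq2 and edgeR 4), and for 3 with the replicate block (Arc, Sorcs1 and Nr4a1, each higher in neurons). With the pool as a block 5 passed, of which 4 were higher in neurons (the same 3 genes and Sorcs3, FDR 0.208) and 1 in glia (Plaur, -1.98, FDR 0.15). The share of all genes past the criterion in the difference was counted only without a block, where it was 0%.

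**Figure D5:**
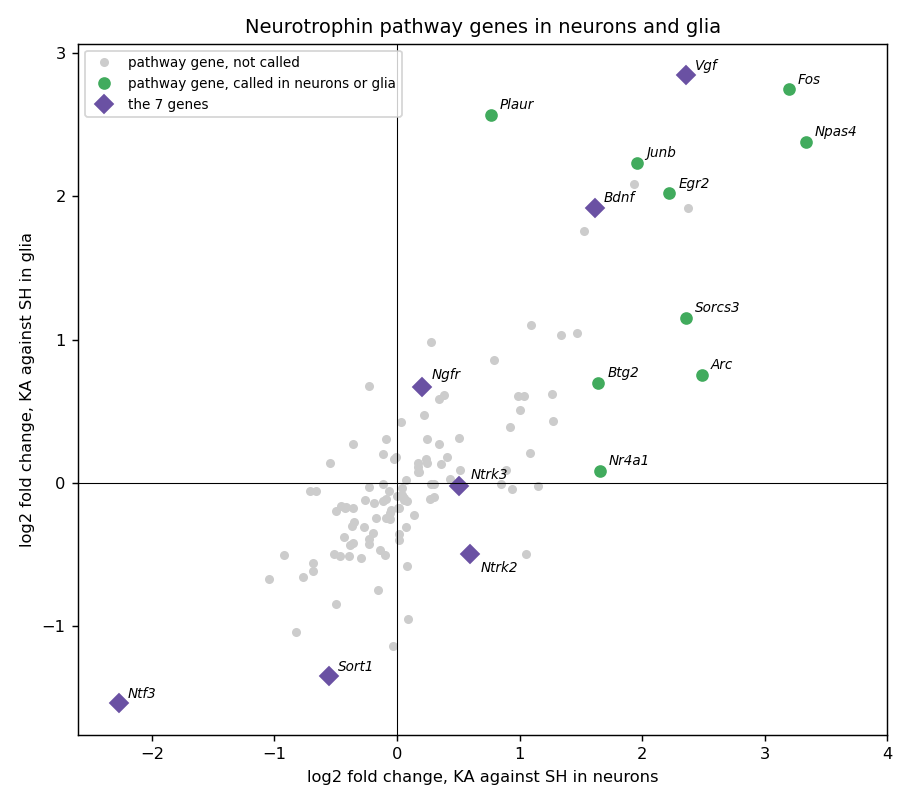
LogFC of KA against SH in neurons (x axis) and in glia (y axis), both on the log2 scale, for 115 pathway genes (grey, or green where upregulated in neurons or glia at an FDR below 0.25) and the 7 genes (purple diamonds). Bdnf and Vgf lie to the upper right with Fos and Npas4, Ntf3 and Sort1 to the lower left, and Ntrk2 has opposite signs in the 2 cell types.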

How the data were processed

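Nuclear mRNA of 12 libraries (SMART-Seq v4, oligo(dT) priming) was analysed; the bisulfite libraries of the series were not used here. The authors trimmed reads with Trim Galore 0.4.3, aligned them with Rsubread (mm10) and assigned reads with a unique alignment to GENCODE M16 genes through featureCounts at default settings. The deposited values are raw counts. Default counting ignores strand, so that sense and antisense reads were not told apart by strand. Both 75-base single and 150-base paired reads were used, with no platform named per library.

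Symbols, positions and exon lengths came from GENCODE M21 (GRCm38), and promoter windows from RefSeq (GRCm38.p6), where 4 of the 7 genes had an entry (Bdnf, Ntf3, Ntrk2 and Ngfr; the 11 windows held 3 motif matches). Ntrk3, Sort1 and Vgf had none. Genes without a symbol (105 of 53379) were left out. With edgeR 4.0.16 in R 4.3.3, filterByExpr (minimum count 10, minimum total 15) left 37598 genes, TMM factors were computed, and all 12 libraries entered 1 quasi-likelihood fit of 4 group means (glmQLFit, legacy=TRUE). Benjamini-Hochberg adjustment covered all genes tested, with FDR 0.25 as the criterion, as in the study. The study, however, fitted neurons and glia separately and over fewer genes. The nearest setting here is the alternative of separate fits. SE was taken as the absolute logFC divided by the root of the F statistic, and intervals are 95%. A script tested on simulated data ran the fits. CPM uses TMM-scaled library sizes. Similarity used log2(CPM + 0.5).

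Libraries of the same replicate number deviated from their group means together (correlation across genes 0.441, 0.279 and 0.624 in neurons and 0.502, 0.527 and 0.801 in glia), so a replicate block was fitted beside the model; the study does not describe the pools as paired. Replicates are pools of mice. In the model of group means, p values rest on the spread between libraries of a group. That model takes all 12 libraries as independent, although the neurons and glia of a pool come from the same mice. With the replicate block, p values rest on the spread left after the replicate number is removed.

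The 7 genes, the pathway lists and the marker lists (15 neuronal, 10 astrocytic, 10 microglial, 8 oligodendrocytic, 5 oligodendrocyte precursor, 7 endothelial and 5 pericytic genes) were chosen with earlier results of these data known. Named in the text are the 7 genes, every pathway gene past the criterion without the block, Ntf5 and the 5 genes most similar to Bdnf and Vgf. Sorl1, Sorcs1, Sorcs2, Furin, Pcsk1, Pcsk2, Pcsk5, Pcsk6, Cpe and Serpini1 were named after their values were seen. So were Shc3, Grb2, Mapk3, Rps6ka3, Gab1, Lingo1 and Ptprf. Neurotrophin-inducible genes that passed only with the block in KA against SH are given as counts. Summed levels of microglial markers were 932 to 2592 CPM in glia and at most 116 CPM in neurons, those of oligodendrocyte precursors 1028 to 1431 in SH glia, 464 to 822 in KA glia and at most 115 in neurons, of pericytes 30.5 to 121 and at most 23.6, and of endothelial cells 9.86 to 49.6 and at most 23.0. The results for some genes of the pathway lists are not reported here, and these genes are in none of the list counts. Alternatives were other scalings, filters, DESeq2 1.42.0, edgeR 4 (legacy=FALSE), separate fits, all gene IDs, FDR 0.05, blocks, and libraries left out.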

Additional observations from a re-analysis of the deposited data

How the results depend on the processing

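The number of the 7 genes past the criterion in KA against SH was 1 up and 0 down in neurons and 2 up and 0 down in glia, and that of the 115 pathway genes 7 and 0 in neurons and 5 and 0 in glia. With the replicate block the 7 genes gave 2 up and 1 down in neurons and 2 up and 2 down in glia. The pathway genes then gave 23 up and 2 down in neurons, beside 1.94% and 1.11% of all genes. In glia they gave 14 up and 5 down, beside 3.47% and 4.17%. For the settings that follow, no share of all genes is given. Their counts can therefore not be set against a background, and a setting may pass more genes of every kind. DESeq2 gave 2 up and 1 down in neurons and 2 up and 2 down in glia, with 13 and 1 pathway genes in neurons and 8 and 2 in glia. It also put 1 of the 7 genes higher in SH glia than in SH neurons. EdgeR 4 gave 2 up and 1 down in neurons and 2 up and 0 down in glia. Separate fits gave 2 up and 1 down, with 21 and 1 pathway genes in neurons and 1 up in glia. Scaling by library size only gave 2 up in neurons and 1 down in glia, with 17 and 1 pathway genes in neurons and 11 and 1 in glia; it moved the median logFC of all genes from 0.00048 to 0.11 in neurons and from 0.14 to 0.42 in glia. Requiring 10 counts in every library, which removed Ntf3 and Ngfr, gave 2 up in neurons and 1 down in glia, with 16 and 1 pathway genes in neurons and 8 and 3 in glia, and 0 of the 7 genes higher in KA glia than in KA neurons; no filter and FDR 0.05 also gave 0 there. FDR 0.05 left 0 up in neurons and 1 in glia, and 1 and 0 pathway genes. Without the 2 low-input libraries 0 of the 7 genes and 0 pathway genes rose in glia. Without all replicate 3 libraries, 1 pathway gene rose in neurons, 0 in glia, 0 of the 7 genes in glia, and 0 were higher in KA glia than in KA neurons.

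Leaving out 1 library at a time gave 0 to 1 of the 7 genes up and 0 to 1 down in neurons, 1 to 2 up in glia, 0 to 7 pathway genes up in neurons and 0 to 7 in glia. Between fractions, 3 to 6 of the 7 genes were higher in KA neurons, 0 to 1 in KA glia, 4 in SH neurons in every such fit and 0 to 1 in SH glia.

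Changes of sign were limited to values that had not passed. The logFC of Ntrk3 in glia was 0.17 with library size scaling and 0.11 in separate fits, and -0.356 to 0.0946 without single libraries. That of Sort1 in SH neurons against SH glia was -0.0393 with library size scaling, -0.054 with 10 counts in every library, -0.31 without low-input libraries and -0.34 to 0.72 without single libraries, and that of Ntrk2 was -0.51 to 0.28. Ngfr was at -0.10 in neurons, -0.37 in glia and 0.27 in the difference without replicate 3 libraries, and at -0.13 to 1.16 in neurons without single libraries. The difference between neurons and glia ran from -0.63 to 0.20 for Bdnf, -1.42 to 0.21 for Ntf3 (0.31 without low-input libraries), -1.42 to 0.49 for Ngfr and -0.74 to 0.14 for Vgf. The KA minus SH difference in the microglial marker share was -1.02 percentage points with the mean over the list in place of the median. The cause of these moves was not tested. Counts were few for Ngfr in all groups and for Ntf3 in glia.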
